A study of Homo sapiens with 12 samples.

Results

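The comparison described here sets U-87 MG cells carrying a short hairpin RNA directed at p105, labelled shp105, against U-87 MG cells carrying a control hairpin, labelled shControl, with neither given temozolomide (TMZ). U-87 MG is an established line from a human glioma, a tumour of glial origin. Its members are 6 of the 12 arrays of the series, 3 per line, chosen by their labels alone. Both lines had been stably transfected and kept for 16 h in DMSO, the solvent of TMZ, so the solvent, the time and the parental line are shared by both groups. The other 6 arrays hold the same lines after 16 h in 100 uM TMZ. They serve here as a second comparison of the lines that shares no array with the first. Both comparisons come from the same fit over all 12 arrays, so they share its estimate of spread and the choice of probe sets. The labels name neither the hairpin sequences nor the promoter that drives them, and they do not say whether a line is 1 clone or a pool of transfected cells. Replicates are called biological without a statement of separate transfections, so the p-values measure the spread between these samples only.

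p105 is the protein made from NFKB1. It is cut to p50, the DNA-binding partner of RELA in the NF-kB transcription factor, and the uncut protein acts as an inhibitor that holds NF-kB subunits and the kinase TPL2 (MAP3K8) in the cytoplasm. In glioma cells NF-kB is known for driving cytokines, chemokines and adhesion molecules. The comparison addresses what differs in a glioma line meant to have little p105 before any drug is given.

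RNA was read on Affymetrix arrays and deposited as log2 levels, where a difference of 1 is a 2-fold difference. Each of 19775 genes is represented by the probe set with the highest mean over the 12 arrays. Array medians lay between 5.04 and 5.09, arrays of the same group correlated at 0.998 across genes, and arrays of different lines at 0.991 to 0.992. On the 27 control probe sets with sequences absent from human RNA the levels were 2.33 to 4.30, with a median of 2.94, and a level under 4 is called background here. Probe sets of CDKN2A, CDKN2B and MTAP, a locus that U-87 MG cells lack, read between 2.36 and 5.61, so a level up to that height can come from background on a single probe set. The hybridization spike-ins, bacterial RNAs added before hybridization, averaged 10.67, 10.57 and 10.64 on the shControl arrays and 11.20, 11.01 and 11.17 on the shp105 arrays, a difference of 0.50 without overlap (exact 2-sided permutation test, p = 0.1, the smallest that 3 against 3 allows). The 3′ to 5′ difference of GAPDH, which grows as RNA degrades, averaged 0.25 in shControl and 0.36 in shp105 cells (exact p = 0.1), and that of ACTB differed by 0.05 (exact p = 0.6).

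NFKB1, the gene of the hairpin's target, was read by 1 probe set at 7.40, 7.23 and 7.34 on the shControl arrays and 7.17, 7.27 and 7.16 on the shp105 arrays. The groups overlapped. The difference, shp105 minus shControl, was -0.12 (SE 0.07, limma adjusted p = 0.260), which puts the level in shp105 cells at 91.8% of that in shControl cells with a 95% interval from 82.9% to 102%. On the TMZ arrays the means were 7.41 and 7.16, a difference of -0.25 that was called (adjusted p = 0.0204). In the untreated cells NFKB1 RNA was thus not called lower, p105 protein is not measured here, and the groups are called by their labels throughout.

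Between the lines 3937 of 19775 genes were called at an adjusted p under 0.05 (19.9%), 1650 higher in shp105 cells (8.34%) and 2287 lower (11.6%). Most of these differences were small. The median size over called genes was 0.36, and 350 genes (1.77% of those tested) differed by at least 2-fold, 170 of them higher (0.86%) and 180 lower (0.91%). At 26 genes the difference was 8-fold or more, and 20 of these were higher in shp105 cells. In the untreated cells 7107 genes (35.9%) had levels that did not overlap between the 3 and 3 arrays. The spike-in level moved with the line, and with it as a covariate the standard errors were 2.39 times as large and 523 genes were called (2.64%), 238 higher (1.2%) and 285 lower (1.44%). All 350 genes past 2-fold kept their sign in that fit and 254 of them were called, and the median size of the called differences was 0.36 with and without the covariate. Of the 147 called genes named here, 40 lost their call with the covariate, and they are given by name in the paragraphs that describe them. Counts of list members are those of the fit without it unless stated. The gene lists were chosen with earlier results of these data known. A share above that of all genes is thus partly open to that choice and is given as description only.

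**Figure D1:**
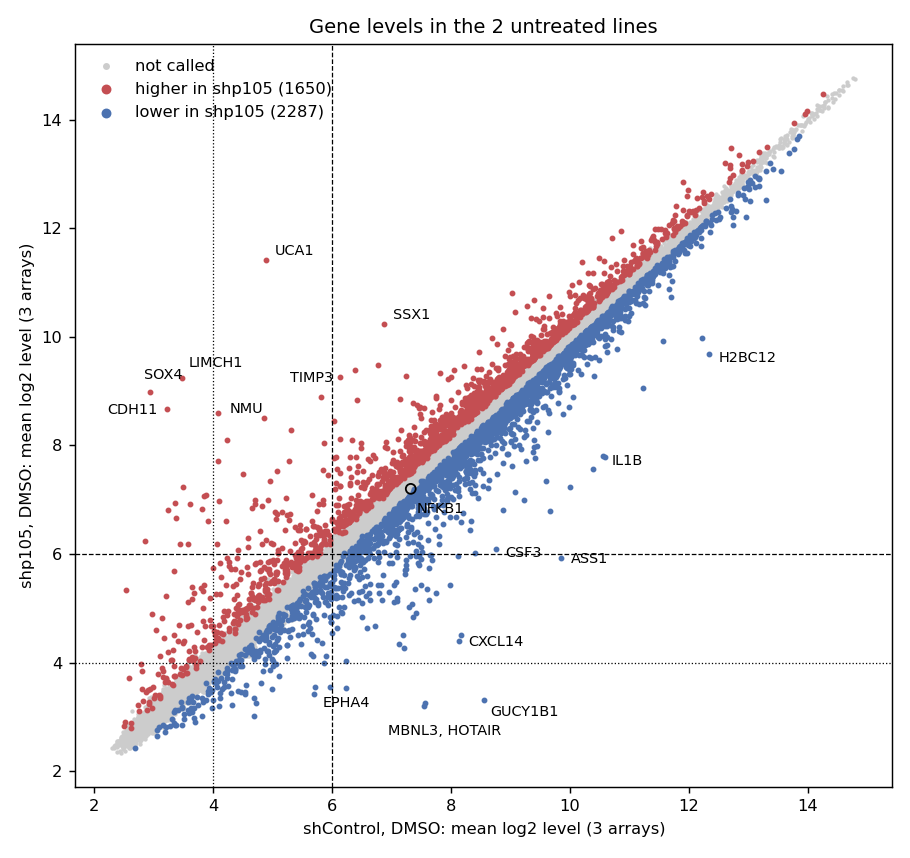
Mean log2 level of each of 19775 genes in shControl cells (x axis) and shp105 cells (y axis), 3 arrays each, with the 1650 genes called higher in red and the 2287 called lower in blue. Dotted lines mark the background limit of 4 and dashed lines the limit of 6 for well-expressed genes; NFKB1, circled, lies near the diagonal, while SOX4, LIMCH1 and CDH11 rise from background and GUCY1B1, MBNL3, HOTAIR and EPHA4 reach it.

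Genes were separated by the lower of their 2 group means. Where that mean was under 4, the gene was at background in at least 1 line, which held for 4637 genes. Of these, 111 were called higher (2.39%) and 105 lower (2.26%), together 4.66%. Among 4926 genes with a lower mean from 4 to under 6, 280 were higher (5.68%) and 354 lower (7.19%), together 12.9%. Among the 10212 well-expressed genes, at 6 or more in both lines, 1259 were higher (12.3%) and 1828 lower (17.9%), together 30.2%. The share called thus grew with level, while the median size of a called difference was 0.54 from background, 0.57 in the intermediate class and 0.32 among well-expressed genes. Of the 26 genes past 8-fold, 15 had a lower mean under 4, 22 under 5, and only SSX1 and TIMP3 were well expressed in both lines on the probe set that represents them. At the limit itself, just inside lay NXN (lower mean 3.99, difference 1.75), PDE9A (3.98, -1.08) and CHSY3 (3.95, -1.06), and just outside DNAI4 (4.001, -1.87), HSD11B1 (4.03, -2.21) and OLIG2 (4.05, 1.22). With the spike-in covariate these genes, other than HSD11B1, lost their calls, NXN at a difference of 0.64 (adjusted p = 0.572) and the others at adjusted p = 0.0605 to 0.159.

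Many genes called in the background class stayed near it. Of the 111 genes called higher in the background class, 47 stayed under 4 in both lines, 49 reached 4 to under 6 in shp105 cells, and 15 reached 6 or more. Of the 105 called lower, 47 were under 4 in both lines, 54 came from 4 to under 6, and 4 came from 6 or more. A fold from background depends on the array's floor, so the sizes below are differences of measured levels and not ratios of RNA.

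SOX4, a transcription factor of embryonic and neural progenitors, stood at 2.94, 2.76 and 3.10 on the shControl arrays and 8.95, 8.99 and 8.998 on the shp105 arrays. It was at background on all 3 shControl arrays and at 8.95 or more on all 3 shp105 arrays, a difference of 6.05 (SE 0.11, adjusted p = 1.79e-11), and 5.87 in the TMZ arrays. All 6 probe sets of SOX4 were higher in shp105 cells, by 0.16 to 6.05. LIMCH1, a cytoskeletal protein that activates non-muscle myosin, stood at 3.31, 3.52 and 3.62 on the shControl arrays and 9.15, 9.30 and 9.26 on the shp105 arrays, a difference of 5.75 (SE 0.10) that ran from 0.22 to 5.75 over its 4 probe sets. CDH11, a mesenchymal cadherin, stood at 3.09, 3.39 and 3.18 on the shControl arrays and 8.68, 8.71 and 8.64 on the shp105 arrays, a difference of 5.46 (SE 0.10) with all 4 probe sets higher. For these genes the lowest shp105 array was more than 5 units above the highest shControl array.

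The other genes that left background for 6 or more were of varied function. CLIC2, a chloride intracellular channel protein, stood at 3.65, 3.68 and 3.15 on the shControl arrays and 7.34, 7.05 and 7.30 on the shp105 arrays. HS3ST1, which adds sulfate groups to heparan sulfate, rose from a mean of 3.24 to 6.80, but its 3 probe sets ran from 0.12 to 3.56. LBH, a transcription cofactor of development, rose from 3.89 to 7.08. SAGE1, a cancer-testis gene, rose from 3.37 to 6.66, and GTSF1, a germline factor of the piRNA pathway, from 3.84 to 7.06. CFI, complement factor I, rose from 3.44 to 6.19. ATP11A, a phospholipid flippase, rose by 3.39 on its brightest probe set, but its 6 probe sets ran from -0.19 to 3.39. The noncoding RNAs LINC00470 and MIR646HG rose by 3.31 and 2.70. ABCA13, an ABC transporter, rose by 2.79 but reached only 5.33.

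In the other direction GUCY1B1, the beta subunit of soluble guanylate cyclase that binds nitric oxide, stood at 8.54, 8.54 and 8.59 on the shControl arrays and 3.31, 3.09 and 3.53 on the shp105 arrays. The difference was -5.25 (SE 0.10, adjusted p = 1.85e-11), and -5.24 in the TMZ arrays. MBNL3, a muscleblind-like splicing regulator, stood at 7.71, 7.36 and 7.57 on the shControl arrays and 3.06, 3.28 and 3.29 on the shp105 arrays. EPHA4, a receptor for ephrins in axon guidance, stood at 6.26, 6.26 and 6.19 on the shControl arrays and 3.23, 3.65 and 3.71 on the shp105 arrays. On these probe sets, the brightest of each gene, they were clearly above background in shControl cells and at background in shp105 cells. The 3 probe sets of MBNL3 ran from -4.34 to -0.40. The 5 of EPHA4 ran from -2.71 to -0.11, and some of them stayed above 4 in shp105 cells, at 4.52 and 4.49. SLC14A1, a urea transporter, fell from 5.97 to 3.55, RBM20, a splicing factor, from 5.69 to 3.43, and SCN3A, a neuronal sodium channel, from 5.71 to 3.56. FUT9, which makes the Lewis x antigen, fell by 1.67 on its brightest probe set, and its 3 probe sets ran from -1.67 to 0.16.

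**Figure D2:**
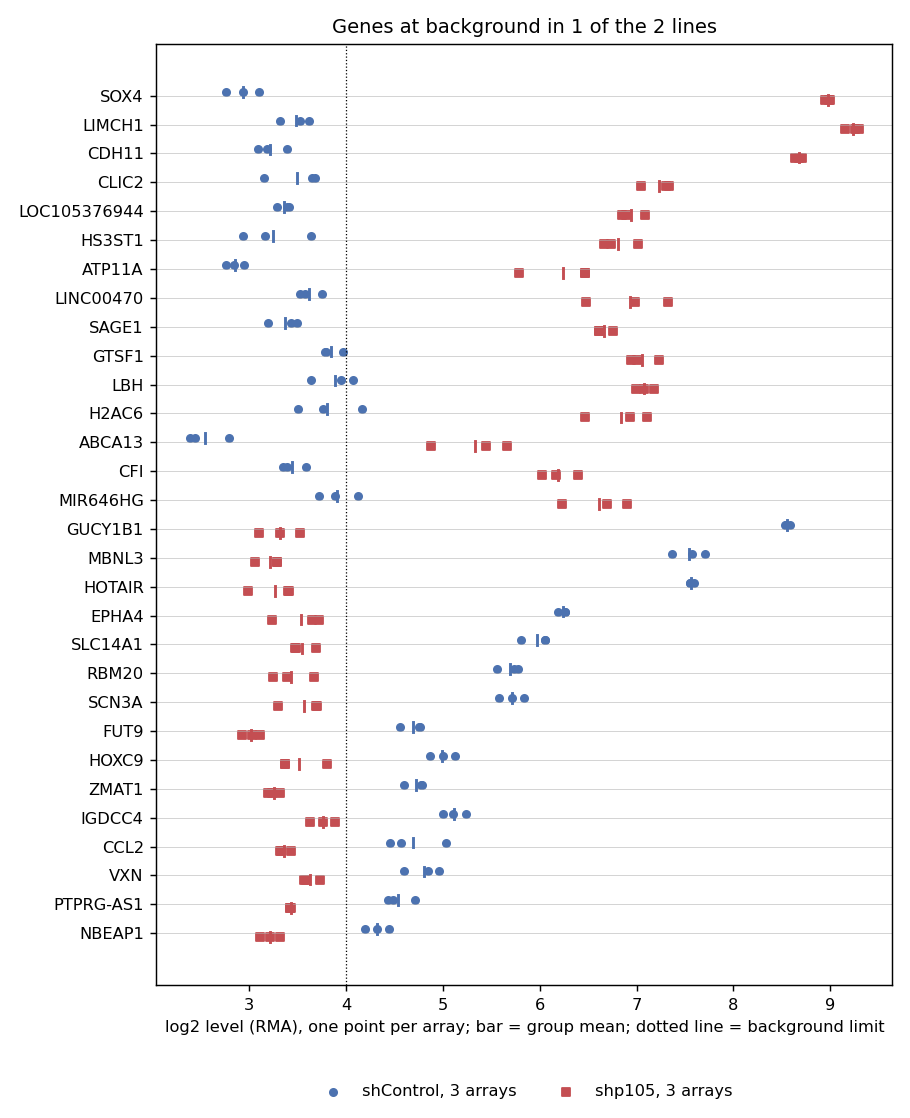
Log2 level on each array (x axis) of 30 called genes at background in a line, the 15 that rose and the 15 that fell by the most, shControl as circles and shp105 as squares, 3 arrays each, with bars at the group means. SOX4, LIMCH1 and CDH11 sit near 9 on all shp105 arrays, while GUCY1B1 sits between 8.54 and 8.59 in shControl cells and under the dotted background limit of 4 in shp105 cells.

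In the intermediate class, with a lower mean from 4 to under 6, the largest increase was that of UCA1. This long noncoding RNA, first described in bladder carcinoma, stood at 5.15, 4.86 and 4.65 on the shControl arrays and 11.41, 11.41 and 11.41 on the shp105 arrays. Its control level of 4.89 lies within the range read at the deleted locus. The difference was 6.52 (SE 0.13), and 7.23 in the TMZ arrays. NMU, the neuropeptide neuromedin U, stood at 3.97, 4.18 and 4.10 on the shControl arrays and 8.58, 8.72 and 8.51 on the shp105 arrays. PTPRF, a receptor tyrosine phosphatase, stood at 3.74, 3.79 and 4.71 on the shControl arrays and 7.57, 7.76 and 7.81 on the shp105 arrays, so 1 shControl array was almost 1 unit above the other 2, and still far below every shp105 array. AKR1C3, an aldo-keto reductase of steroid metabolism, rose by 2.97, and PRKCZ, an atypical protein kinase C, by 2.45. IGFBP1, which binds insulin-like growth factors, rose by 3.09 on 1 probe set, with -0.12 on its second. DENND2A, an exchange factor for RAB proteins, rose by 3.66 and 3.26 on 2 of its 3 probe sets. The other stood at background (2.77 in both lines). The shControl means of NMU, PTPRF, AKR1C3, DENND2A and PRKCZ, 4.08 to 5.07, also lie within the range of the deleted locus.

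Among well-expressed genes TIMP3, the inhibitor of metalloproteinases bound to matrix, stood at 6.37, 5.57 and 6.48 on the shControl arrays and 9.33, 9.22 and 9.25 on the shp105 arrays. The difference of 3.13 (SE 0.25) comes from the probe set with the highest mean, and the other 3 probe sets of the gene gave differences of 7.65, 6.39 and 4.75. Of these, 2 were at background in shControl cells (3.45 and 3.503), so the class of TIMP3 depends on the probe set. The difference with the spike-in covariate was 2.09 (adjusted p = 0.0624) and the call was lost. CD24, a small glycosylated surface protein, rose by 2.99 (SE 0.07), SYT13, a synaptotagmin, by 2.70, and G0S2, an inhibitor of fat breakdown, by 2.41. P3H2, a collagen prolyl hydroxylase, rose by 2.41 on 1 probe set and read -0.01 on its second. ID3, an inhibitor of basic helix-loop-helix factors, rose by 1.51, with 1.34 for ID2 and 0.40 for ID1. Of the 4 ID genes, a set drawn after the values were seen, 3 were called higher, against 8.34% of all genes. The call of ID1 was lost with the covariate (adjusted p = 0.228).

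Decreases among well-expressed genes were led by histone and inflammatory genes. Of the 15 largest, H2BC5, H2BC12L, H1-2 and H2BC12 are histone genes and IL1B, CSF3 and CXCL8 encode secreted inflammatory proteins. GLUL, glutamine synthetase, stood at 10.02, 10.05 and 9.92 on the shControl arrays and 7.11, 7.40 and 7.196 on the shp105 arrays, a difference of -2.76 (SE 0.08). PLPP3, a lipid phosphate phosphatase, fell by 2.40, PAPSS2, which makes the sulfate donor of sulfotransferases, by 2.26. SRGN, the proteoglycan serglycin, fell by 1.95 on its brightest probe set, and its 3 probe sets ran from -2.01 to 0.05. FENDRR, a long noncoding RNA beside FOXF1, fell by 2.08.

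Between those classes, ASS1, argininosuccinate synthase, which lets cells make their own arginine, stood at 9.86, 9.79 and 9.92 on the shControl arrays and 5.69, 6.06 and 6.04 on the shp105 arrays. The difference was -3.93 (SE 0.11), from well expressed to just under the limit of 6. Of 19 measured genes of arginine, urea cycle and polyamine metabolism, 3 were lower (15.8% against 11.6% of all genes) and 5 higher (26.3% against 8.34%). ASS1 alone passed 2-fold, and the 5 higher became 3 without shp105 replicate 2. Of the 19, 1 was lower and 0 higher with the spike-in covariate. ASL, the next enzyme after ASS1, was higher by 0.42 (SE 0.08), and SMS, spermine synthase, by 0.57. PYGL, liver glycogen phosphorylase, fell by 2.78, and RNF175, a RING finger protein, by 3.67. Of 20 genes of cGMP signalling 4 were lower (20%) and 2 higher (10%), but 1 and 0 with the covariate. Besides GUCY1B1, the cyclase subunit GUCY1A2 fell by 0.87 and PDE9A, a cGMP phosphodiesterase, by 1.08. With the spike-in covariate GUCY1A2 read -0.39 (adjusted p = 0.644) and was no longer called, nor were PDE9A (adjusted p = 0.142), ASL (0.495) and SMS (0.108).

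NFKBIZ, RELB and NFKBIA were lower in shp105 cells, and the other NF-kB subunits and IkB genes did not pass. Of the 10 measured NF-kB subunits and IkB proteins 3 were lower (30% against 11.6% of all genes) and none was higher. The list median was -0.14 against -0.01 over all genes. Of the 10, 8 were well expressed, the class in which 17.9% of genes were lower. With the spike-in covariate 1 was lower: RELB (-0.70, adjusted p = 0.221) and NFKBIA (-0.93, adjusted p = 0.0809) lost their calls. RELB, the subunit of the non-canonical dimer with p52, stood at 6.74, 6.36 and 6.53 on the shControl arrays and 5.73, 5.80 and 5.67 on the shp105 arrays, a difference of -0.81 (SE 0.10). NFKBIA, the classical inhibitor IkB alpha and itself an NF-kB target, stood at 9.85, 9.76 and 9.67 on the shControl arrays and 9.27, 8.89 and 9.06 on the shp105 arrays, a difference of -0.69 (SE 0.10). NFKBIZ, an atypical nuclear IkB protein, stood at 9.47, 9.32 and 9.41 on the shControl arrays and 7.93, 7.92 and 8.08 on the shp105 arrays, a difference of -1.42 (SE 0.07). In each of these the groups were apart. RELA (-0.12, adjusted p = 0.135), NFKB2 (-0.15, adjusted p = 0.291) and REL (-0.08, adjusted p = 0.554) did not pass. RELA passed when all probe sets of a gene were averaged (-0.16, adjusted p = 0.0418) and when genes below the median level were left out (adjusted p = 0.0463), and NFKB2 without shp105 replicate 2 (-0.25, adjusted p = 0.0441).

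Upstream of the subunits, 4 of 20 IKK kinases and adaptors were lower (20%) and 1 was higher (5% against 8.34% of all genes). Of these 20 genes 18 were well expressed, a class in which 17.9% of all genes were lower, so the share is near the general one, and none of the 20 was lower with the spike-in covariate. TRAF5, an adaptor of TNF receptors, fell by 0.89 (SE 0.08) and IRAK2, a kinase of the interleukin-1 receptor pathway, by 0.64. MAP3K14, the NIK kinase that starts the non-canonical branch, rose by 0.65 (SE 0.05). Of 11 feedback inhibitors 2 were lower and 2 higher (18.2% each, against 11.6% and 8.34% of all genes). When all probe sets of a gene were averaged 1 was lower and 0 higher. Of the 11, 0 were lower and 0 higher with the spike-in covariate. TNIP1, which binds the deubiquitinase A20, fell by 0.56, whereas TNFAIP3, which encodes A20, read -0.03 (adjusted p = 0.859). With the covariate TRAF5 read -0.51 (adjusted p = 0.182), and IRAK2 (adjusted p = 0.121) and TNIP1 (0.185) also lost their calls.

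IL1B, CXCL8, CXCL2, CCL20 and other genes of secreted inflammatory proteins were lower in shp105 cells. Of 21 chemokines 7 were lower (33.3% against 11.6% of all genes) and 1 was higher (4.76% against 8.34%), with a median of -0.16, and 3 were lower with the spike-in covariate. Of 16 genes of the interleukin-1 system 4 were lower (25%) and none was higher (1 with quantile normalization on top), with a median of -0.03, and 12 did not pass. Of the 16, 3 were lower with the covariate. IL1B, the cytokine interleukin-1 beta, stood at 10.62, 10.43 and 10.61 on the shControl arrays and 7.83, 7.83 and 7.73 on the shp105 arrays. Its 2 probe sets gave -2.76 and -2.63, and the TMZ arrays -3.001. NLRP3, the sensor of the inflammasome that matures interleukin-1 beta, stood at 6.69, 6.52 and 6.71 on the shControl arrays and 5.06, 5.11 and 5.29 on the shp105 arrays. IL1R1, the receptor, fell by 1.51 (SE 0.09) and CASP1, the protease that cuts the precursor, by 0.40. IL1A, the second ligand, read 0.03, and it did not pass. The call of CASP1 was lost with the covariate (adjusted p = 0.308).

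CXCL8, the neutrophil chemokine interleukin-8, stood at 9.24, 9.26 and 9.20 on the shControl arrays and 6.90, 6.86 and 7.22 on the shp105 arrays, a difference of -2.24 (SE 0.12). CXCL2, another neutrophil chemokine, stood at 8.46, 8.18 and 8.30 on the shControl arrays and 7.25, 7.19 and 7.17 on the shp105 arrays. CCL20, a lymphocyte chemokine, stood at 5.56, 5.64 and 5.73 on the shControl arrays and 4.32, 3.94 and 4.19 on the shp105 arrays. No shp105 array reached the lowest shControl array at any of them. CCL2, the monocyte chemokine, stood at 5.03, 4.57 and 4.46 on the shControl arrays and 3.31, 3.32 and 3.43 on the shp105 arrays, which is background in shp105 cells, and CXCL3 fell by 0.97 (SE 0.14). CXCL14, a chemokine of epithelia and brain, had the largest decrease of the list on its brightest probe set, at 8.13, 8.14 and 8.14 on the shControl arrays and 4.48, 4.29 and 4.45 on the shp105 arrays. Its other 2 probe sets read -3.38 and 0.04, the last at background in both lines. The exception was CCL26, eotaxin-3, which stood at 4.97, 5.10 and 5.15 on the shControl arrays and 6.63, 6.85 and 6.76 on the shp105 arrays, higher by 1.68. With the spike-in covariate CCL20 (adjusted p = 0.145), CCL2 (0.394) and CXCL3 (0.19) lost their calls at differences of similar size. The shControl means of CCL2, CXCL3 and CCL26, 4.69, 5.50 and 5.07, lie within the range read at the deleted locus. That of CCL20, 5.64, lies just above it.

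Other genes of cytokines, receptors and surface proteins differed in both directions. CSF3, granulocyte colony-stimulating factor, stood at 8.73, 8.75 and 8.81 on the shControl arrays and 5.95, 6.02 and 6.31 on the shp105 arrays, a difference of -2.67 (SE 0.09). IL6, the cytokine interleukin-6, stood at 7.80, 7.53 and 7.84 on the shControl arrays and 6.52, 6.30 and 6.53 on the shp105 arrays. LIF, leukaemia inhibitory factor, fell by 1.01 (SE 0.05). Among receptors and transducers OSMR, the oncostatin M receptor, was lower by 0.32. IL6R, the interleukin-6 receptor, rose by 0.73, IL6ST, the shared receptor chain gp130, by 0.23, and STAT3, the transcription factor below it, by 0.60 (SE 0.04). Of the 14 genes of this list 6 were lower (42.9% against 11.6% of all genes) and 5 higher (35.7% against 8.34%). Of the 14, 12 were well expressed, the class in which 17.9% of all genes were lower and 12.3% higher. In the fit with the spike-in covariate 3 of the 14 were lower and 2 higher. CSF1, the macrophage growth factor, was higher by 0.63 (SE 0.06). PTGS2, the inducible cyclooxygenase-2, stood at 7.19, 6.79 and 6.92 on the shControl arrays and 5.24, 5.16 and 5.51 on the shp105 arrays, and ICAM1, an adhesion receptor for leukocytes, at 7.51, 7.33 and 7.43 on the shControl arrays and 6.50, 6.42 and 6.31 on the shp105 arrays. PTGES, the prostaglandin E synthase downstream of PTGS2, was higher by 0.43. Of 29 genes of the TNF superfamily 7 were lower (24.1%) and 5 higher (17.2%), but 1 and 1 with the spike-in covariate. Among them CD70, a ligand of T cell costimulation, was up by 1.54 and TNFRSF11B, the decoy receptor osteoprotegerin, down by 0.84. With the covariate OSMR, IL6R, IL6ST, CD70 and TNFRSF11B lost their calls (adjusted p = 0.161 to 0.511).

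**Figure D3:**
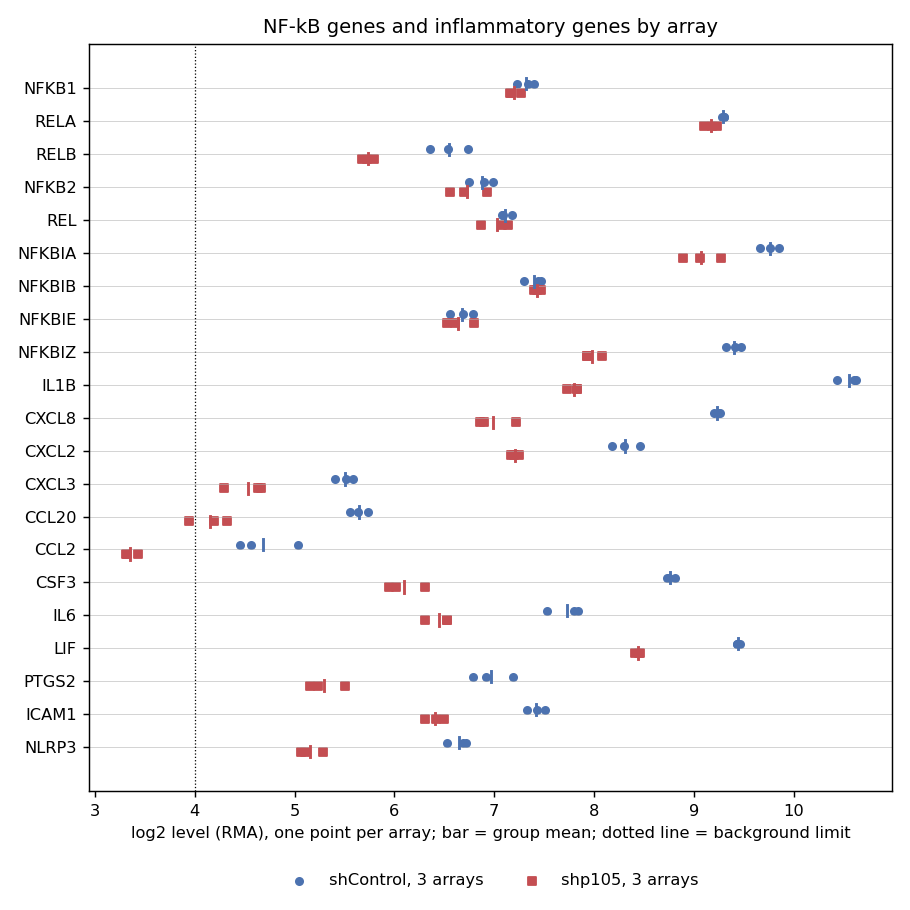
Log2 level on each array (x axis) of 9 NF-kB subunit and IkB genes and 12 inflammatory genes, shControl as circles and shp105 as squares, 3 arrays each, with bars at the group means and the background limit of 4 dotted. NFKB1 overlaps between the lines, while IL1B drops from about 10.55 to 7.80 and CSF3 from 8.76 to 6.09 without overlap.

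To show what these lower genes carry at their starts, the 250 bases before the RefSeq start were searched on both strands for the 10-base kB consensus and for GGAANTTCC, the form found at CXCL8, which overlap at some sites. Since that form was taken from CXCL8, its match there was fixed by the choice. Of 13 genes of the NF-kB, cytokine, adhesion and MHC lists that were lower by at least 2-fold and had a promoter sequence, 5 held the kB consensus (CCL20, CXCL2, HLA-DPA1, IL6 and NFKBIZ), and ICAM1 and CXCL8 held GGAANTTCC alone. The consensus was held by 11.1% of all 15384 genes with a sequence, by 11.6% of the 129 genes lower by at least 2-fold and by 10.5% of the 124 higher by at least 2-fold, and GGAANTTCC by 0.865%, 3.88% and 0.806%. IL1B, PTGS2, CXCL14, NLRP3, IL1R1 and HLA-DRB1 held none in this window. The stretches below are from the strand of the gene in GRCh38.p14, with the matched letters in capitals; at CCL20 the consensus reads on the opposite strand. A match is a string of letters and was not tested for binding.
CXCL8 (chr4:73740453-73740511, plus strand): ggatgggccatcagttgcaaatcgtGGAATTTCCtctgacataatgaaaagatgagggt
CXCL2 (chr4:74099239-74099298, minus strand): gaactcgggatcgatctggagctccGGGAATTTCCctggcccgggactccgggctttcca
CCL20 (chr2:227813738-227813797, plus strand): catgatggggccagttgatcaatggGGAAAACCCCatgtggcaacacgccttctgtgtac
IL6 (chr7:22727102-22727161, plus strand): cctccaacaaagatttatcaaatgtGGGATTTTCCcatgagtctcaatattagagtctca
ICAM1 (chr19:10270909-10270967, plus strand): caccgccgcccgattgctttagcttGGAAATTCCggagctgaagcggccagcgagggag
NFKBIZ (chr3:101827742-101827801, plus strand): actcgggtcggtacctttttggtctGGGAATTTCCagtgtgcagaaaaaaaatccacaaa
The matches at CXCL8, CXCL2, CCL20 and IL6 start 91, 78, 79 and 73 bases before the start of the gene. CXCL8, CXCL2 and NFKBIZ share the letters GGAATTTCC, while ICAM1 holds GGAAATTCC. These genes were lower by 2.24 (CXCL8), 1.11 (CXCL2), 1.49 (CCL20), 1.27 (IL6), 1.01 (ICAM1) and 1.42 (NFKBIZ) on the log2 scale, so the shared letters came with differences of unequal size.

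The uncut p105 protein also holds the kinase TPL2, which feeds the ERK pathway. MAP3K8, which encodes TPL2, stood near background in both lines and read 0.04 (adjusted p = 0.916). Of 21 genes of this branch and of ERK feedback 10 were lower (47.6% against 11.6% of all genes). In that list 3 were higher (14.3% against 8.34%). Of the 21, 19 were well expressed, the class in which 17.9% of all genes were lower, and with the spike-in covariate 3 of the 21 were lower and 0 higher. The median was -0.19. DUSP6, a phosphatase of ERK made in response to it, stood at 10.40, 10.52 and 10.30 on the shControl arrays and 9.19, 9.35 and 9.28 on the shp105 arrays, a difference of -1.13 (SE 0.07). SPRY4, an inhibitor of receptor signalling, fell by 0.68 (SE 0.06), EGR1, an immediate early transcription factor, by 0.65, and IER3 by 0.69. DUSP1, a phosphatase that favours p38 and JNK, was higher by 0.27, a call lost when its probe sets were averaged (0.09, adjusted p = 0.419) and, as that of EGR1 (adjusted p = 0.215), with the covariate (adjusted p = 0.623). The 3 higher members became 1 when all probe sets of a gene were averaged, without shp105 replicate 1, without shControl replicate 2 or without shControl replicate 3, and 5 with quantile normalization on top. EREG, epiregulin, a ligand of the ERBB receptors, fell by 1.39 (SE 0.10).

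**Figure D4:**
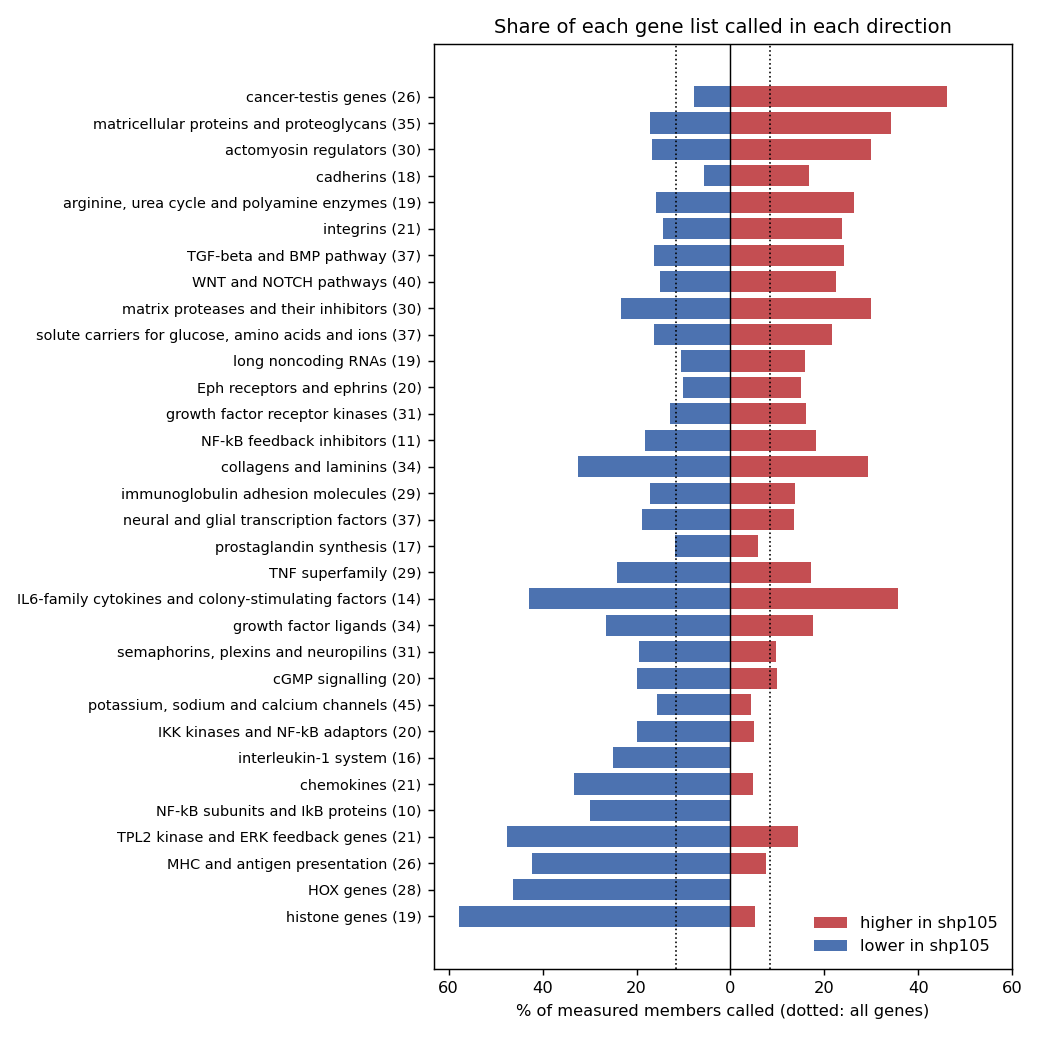
Share of the measured members of 32 gene lists that were called higher (red, right) or lower (blue, left) in shp105 cells, in percent, with the number measured in brackets and dotted lines at the 8.34% and 11.6% of all genes. The lists lie in order of the higher minus the lower share, from cancer-testis genes (46.2% higher) at the top to histone genes (57.9% lower) at the bottom.

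Matrix genes differed in both directions. Of 35 matricellular proteins and proteoglycans 12 were higher (34.3% against 8.34% of all genes) and 6 lower (17.1% against 11.6%). Of 30 matrix proteases and inhibitors 9 were higher (30%) and 7 lower (23.3%). Of the 35, 2 were higher and 1 lower with the spike-in covariate, and of the 30, 3 were higher and 3 lower. CCN5, a CCN family protein, rose by 1.23 (SE 0.07) and CCN2, connective tissue growth factor, by 0.85 (SE 0.06). THBS2, thrombospondin-2, fell by 1.45 (SE 0.08) and FN1, fibronectin, by 0.41. TIMP4 and TIMP2 were higher by 0.82 and 0.39 while TIMP1 was lower by 0.30, so the inhibitors of metalloproteinases differed in both directions. The calls of TIMP1, TIMP2 and FN1 were lost with the covariate (adjusted p = 0.111 to 0.385). PLAUR, the urokinase receptor, fell by 0.79 and PLAU, urokinase, by 0.54. Of 34 collagens and laminins 10 were higher (29.4%) and 11 lower (32.4%), but 4 and 0 with the spike-in covariate. The fibrillar chains COL5A2, COL5A1 and COL1A1 rose by 1.48, 1.13 and 1.12, and no collagen or laminin fell by as much as 2-fold. The 5 probe sets of COL1A1 ran from -0.20 to 1.12, so its rise depends on the probe set. The 11 lower ones became 4 without shp105 replicate 1, 6 without shp105 replicate 3, and 7 without shControl replicate 1, without shControl replicate 3 or when all probe sets of a gene were averaged.

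Adhesion molecules showed a few large steps. Of 18 cadherins 3 were higher (16.7% against 8.34% of all genes) and 1 was lower (5.56% against 11.6%). The lower one was lost without shControl replicate 2, without shp105 replicate 2 and without shp105 replicate 3. Of the 18, 2 were higher and 0 lower with the spike-in covariate. Beside CDH11, CDH3, P-cadherin, stood at 6.01, 5.84 and 5.71 on the shControl arrays and 7.35, 7.80 and 7.49 on the shp105 arrays, higher by 1.69 (SE 0.13), and CDH2, the N-cadherin of mesenchymal and neural cells, was higher by 0.39. Of 29 adhesion molecules of the immunoglobulin family 5 were lower (17.2%), or 3 without shp105 replicate 1, and 4 higher (13.8%). Of the 29, 3 were lower and 1 higher with the covariate. ICAM2 fell by 2.48 (SE 0.16) and CADM1, a synaptic cell adhesion molecule, fell by 2.25, while MCAM, the melanoma cell adhesion molecule, rose by 0.95. ITGA6, the integrin alpha 6 chain of laminin receptors, rose from background, 3.57, to 5.11. Of 30 actomyosin regulators 9 were higher (30%), with MYL9, a regulatory light chain, up by 0.66. In that list 5 were lower (16.7%), with MYH9, the heavy chain of non-muscle myosin IIA, down by 0.83 (SE 0.08). Of the 30, 1 was higher and 0 lower with the covariate. With the covariate CDH2, MYL9 and MYH9 lost their calls (adjusted p = 0.0564 to 0.171).

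Signalling genes of development also differed. Among 40 genes of the WNT and NOTCH pathways 9 were higher (22.5% against 8.34% of all genes) and 6 lower (15% against 11.6%). Of the 40, 3 were higher and 3 lower with the spike-in covariate. FZD7, a WNT receptor, fell by 1.62 (SE 0.07), FZD2 and FZD6, of the same receptor family, rose by 0.82 and 0.80, and DKK3 and DKK1, secreted WNT antagonists, rose by 1.09 and 0.79. SEMA6D, a guidance semaphorin, fell by 1.63 (SE 0.09). TEK, the angiopoietin receptor TIE2, rose from 4.26 to 5.79, with 0.02 on its second probe set. AXL, a receptor kinase that binds GAS6, rose by 0.71 (SE 0.05). BAMBI, a decoy receptor of the TGF-beta family, rose by 1.22, and TGFBI, a matrix protein induced by TGF-beta, by 0.77. Of 37 neural and glial transcription factors 7 were lower (18.9%) and 5 higher (13.5%), but 0 and 3 with the covariate. OLIG2, a factor of the oligodendrocyte lineage, rose by 1.22 to only 5.27, with -0.23 on its second probe set, and SOX5 fell by 1.04. With the covariate FZD2 read 0.49 (adjusted p = 0.452) and SOX5 -0.50 (adjusted p = 0.566), and neither they nor OLIG2 were called.

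HOX genes encode transcription factors of body position, and 13 of them were lower in shp105 cells. The list holds 28 measured HOX genes, so 46.4% were lower against 11.6% of all genes, none was higher, and the median was -0.31. Of the 28, 4 were lower with the spike-in covariate. By cluster, a split made after the values were seen, 5 of 9 HOXC, 4 of 10 HOXB and 4 of 8 HOXD genes were lower. Of the 5 past 2-fold 4 were HOXC genes. HOXC10 stood at 7.13, 6.99 and 7.50 on the shControl arrays and 4.23, 4.49 and 4.10 on the shp105 arrays, HOXC4 fell by 2.57 (SE 0.13), HOXC6 by 1.72 (SE 0.08) and HOXC9 by 1.48 (SE 0.29). HOTAIR, a long noncoding RNA transcribed from within the HOXC cluster on chromosome 12, stood at 7.55, 7.60 and 7.55 on the shControl arrays and 3.40, 2.98 and 3.40 on the shp105 arrays, a difference of -4.30 (SE 0.11) on its single probe set. In the HOXD cluster on chromosome 2 HOXD10 fell by 1.06 (SE 0.11). The calls of HOXC9 (-1.82, adjusted p = 0.271) and HOXD10 (-0.92, adjusted p = 0.137) were lost with the covariate.

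HLA-DRA and other MHC class II genes, which present antigen taken up from outside and are induced through the factor CIITA, were lower in shp105 cells. Of 26 genes of antigen presentation 11 were lower (42.3% against 11.6% of all genes) and 2 higher (7.69% against 8.34%). The list median was -0.01, that of all genes. Of the 26, 24 were well expressed, the class in which 17.9% of all genes were lower, and 5 were lower and 0 higher with the spike-in covariate. The 2 higher became 1 without shControl replicate 1 or without shp105 replicate 3 and 4 with quantile normalization on top. Of 17 measured class II pathway genes 9 were lower and none higher, and of 6 class I genes 1 was higher, groupings made after the values were seen. Over all genes 11.6% were lower and 8.34% higher. HLA-DRA stood at 8.37, 8.204 and 8.40 on the shControl arrays and 6.32, 6.53 and 6.48 on the shp105 arrays, a difference of -1.88 (SE 0.09). HLA-DPA1 fell by 1.27 (SE 0.05), HLA-DRB1 by 1.16 (SE 0.06) and HLA-DPB1 by 0.78. CIITA read 0.09 (adjusted p = 0.592) at about 5.19, within the range of the deleted locus. TAP1, a peptide transporter of the class I pathway, was lower by 0.32, a call lost with the covariate (adjusted p = 0.273). The class II genes are close relatives with many alleles, and the probe sets may not tell them apart.

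**Figure D5:**
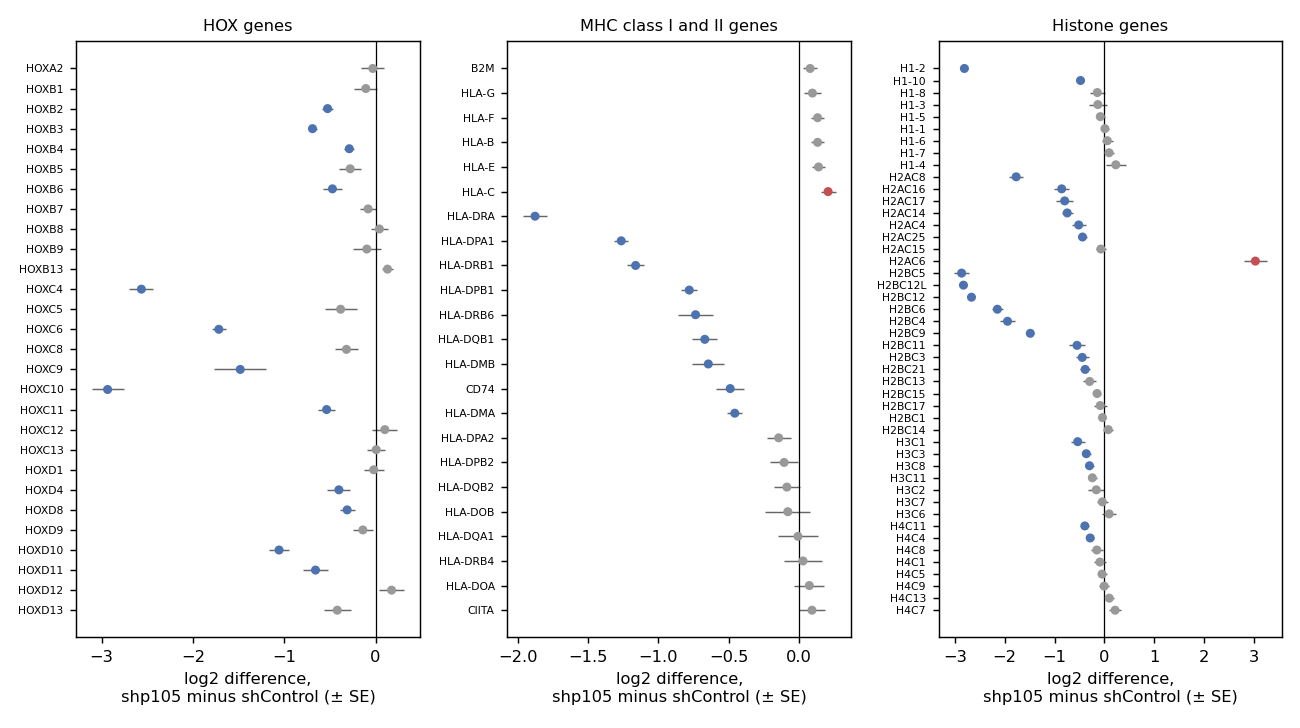
Log2 difference, shp105 minus shControl in DMSO (x axis), of each measured HOX gene, MHC gene and histone gene with its standard error, n = 3 arrays per line; blue points were called lower, red higher, and grey did not pass. The 9 lower class II genes and the lower histone genes lie left of 0, with HOXC10 at -2.94, HLA-DRA at -1.88, H2BC5 at -2.87 and H2AC6 alone at 3.03.

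Of the 32 lists, histone genes had the largest share of lower members, 11 of 19 (57.9% against 11.6% of all genes), with a median of -0.38. In that list 1 member was higher (5.26% against 8.34%), and 7 were lower with the spike-in covariate. H2BC12, an H2B gene, stood at 12.31, 12.41 and 12.32 on the shControl arrays and 9.70, 9.64 and 9.70 on the shp105 arrays, a difference of -2.67 (SE 0.06). H1-2, a linker histone, fell by 2.81 (SE 0.07) and H2BC5 by 2.87 (SE 0.15) on its brightest probe set. The second probe set of H2BC5 read 6.83 in shControl and 6.50 in shp105 cells, a difference of -0.33. H2AC6, an H2A gene, ran the other way, at 3.497, 3.76 and 4.16 on the shControl arrays and 6.47, 6.93 and 7.11 on the shp105 arrays. Over all measured H2B genes, a set drawn after the values were seen, 9 of 14 were lower, 6 of them by at least 2-fold. Of the other families, drawn in the same way, 6 of 8 H2A genes were lower and 1 higher. Only 3 of 7 H3, 2 of 8 H4 and 2 of 9 H1 genes were lower, with medians of -0.24, -0.07 and -0.08. Histone genes are near-identical copies, so RNA of 1 gene may reach the probe set of another.

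SSX1, SSX3, MAGEC2 and other genes normally restricted to testis were higher in shp105 cells. Of 26 cancer-testis genes 12 were higher (46.2% against 8.34% of all genes) and 2 were lower (7.69% against 11.6%), with a median of 0.19. In the fit with the spike-in covariate 4 were higher and 1 was lower. SSX1, a transcriptional repressor of the X chromosome, stood at 6.78, 6.92 and 6.92 on the shControl arrays and 10.20, 10.22 and 10.26 on the shp105 arrays, a difference of 3.35 (SE 0.06), and SSX3 rose by 2.96 (SE 0.11). MAGEC2 rose by 1.78 (SE 0.09) while its neighbour MAGEC1 stood at 12.19, 12.28 and 12.21 on the shControl arrays and 9.96, 9.99 and 10.00 on the shp105 arrays, lower by 2.24. PAGE1 rose by 1.19, a call lost with the covariate (adjusted p = 0.449). Of 9 genes of the PSG family, glycoproteins of the placenta chosen after the values were seen, 6 were higher. SSX, MAGE and PSG genes are near-identical within their families, so a value may hold signal of a relative.

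Transporter genes differed in both directions. SLC2A1, the glucose transporter GLUT1, rose by 0.85 (SE 0.08) and SLC2A3, GLUT3, by 0.39. SLC4A4, a sodium bicarbonate cotransporter of astrocytes, fell by 1.26 (SE 0.10), and SLC1A3, the glial glutamate transporter GLAST, by 0.59. Of 37 solute carriers 8 were higher (21.6% against 8.34% of all genes) and 6 lower (16.2% against 11.6%). Of the 37, 1 was higher and 2 were lower with the spike-in covariate. Among 45 ion channels 7 were lower (15.6%) and 2 higher (4.44%), with CACNA2D3, a calcium channel subunit, down by 1.14. Of the 45, 3 were lower and 0 higher with the covariate. With the covariate SLC2A3 (adjusted p = 0.0519) and SLC1A3 (0.151) lost their calls.

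Markers of other cell types were checked in whole lists, as summed linear levels over a list. The 11 leukocyte markers summed to 353 to 385 in shControl and 329 to 349 in shp105 cells, with 5 of 11 under 4 in both lines, and PTPRC, the pan-leukocyte CD45, read 3.04 and 3.04. The 12 epithelial markers summed to 358 to 376 and 394 to 413, with CDH1, E-cadherin, at 3.21 and 3.30. Of these 12 markers 3 were higher (25% against 8.34% of all genes) and 1 was lower (8.33% against 11.6%). The 12 fibroblast and pericyte markers summed to 2441 to 2541 and 2652 to 2831, and the 10 endothelial markers to 517 to 531 and 593 to 640. Of the fibroblast and pericyte markers 3 were higher (25%) and 3 lower (25%), and of the endothelial markers 2 higher (20%) and 1 lower (10%). The 11 markers of the oligodendrocyte lineage summed to 1149 to 1261 and 1246 to 1295 and the 13 neuron markers to 7690 to 8112 and 7874 to 8202, and these overlapped between the lines. The 15 astrocyte markers summed to 39953 to 41540 and 38057 to 38822, most of it VIM, vimentin, while GFAP, the defining astrocyte filament, read 5.05 and 5.13, so the glial origin of the line does not show in this marker. Of these 15 markers 3 were lower (20% against 11.6% of all genes), GLUL among them, and 1 was higher (6.67% against 8.34%). The part of such shifts in the results was not tested. RNA was taken from whole cultures, so fewer cells of a kind and less RNA per cell cannot be told apart.

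The lines were compared again on the 6 TMZ arrays, which share none with the DMSO arrays. Both comparisons came from the same fit, with the same standard error for a gene, so their calls are not from separate fits. Of the 3937 genes called in DMSO, 3852 had the same sign in TMZ and 2925 were called the same way, 4 the opposite way. By class, 125 of 216 genes from background were called again the same way, 455 of 634 in the intermediate class and 2345 of 3087 among well-expressed genes. All 350 genes past 2-fold in DMSO were called the same way in TMZ, 59 from background, 150 intermediate and 141 well expressed. These are the same 2 lines, so this repeats the measurement and not the making of the lines. The difference of the line differences between TMZ and DMSO was called for 0 genes by limma, with 1266 genes at an unadjusted p under 0.05. IL1B read -2.76 in DMSO and -3.001 in TMZ, EGR1 -0.65 and -1.10, and UCA1 6.52 and 7.23.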

How the data were processed

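The authors deposited a log2 level for each probe set on each array, made with RMA and Affymetrix Power Tools, per the submitters' processing notes. Tool versions, probe annotation and filters are not given in any source used here. Of 54675 probe sets 41097 had exactly 1 symbol in the platform's probe annotation, updated through RefSeq (GRCh38.p14). This gave 19775 genes, each by its probe set with the highest mean over the 12 arrays.

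limma 3.58.1 in R 4.3.3 (lmFit and eBayes, 4 group means over all 12 arrays, 2-sided, Benjamini-Hochberg over 19775 genes, called under 0.05) gave the differences and standard errors, with n = 3 arrays per group. The number of arrays limits the precision. Simulated data held 19775 genes, 50 changed at each size and the rest unchanged, with independent noise on each array. The fit recovered 54% of 50 genes changed by 0.4, 78% at 0.6, 94% at 1.0 and 100% at 3.0. In the real data 19.9% of genes were called and arrays may shift together, so these percentages hold for the simulated setting only. Named genes are NFKB1, the deleted locus, list members and the largest called changes without overlap in each direction. The last are the 15 from background, the 15 among well-expressed genes and the 10 in the intermediate class. The histone family, MHC class, PSG, ID and HOX cluster groupings were taken after their values were seen. So were CHSY3, NXN, DNAI4 and HSD11B1, at the background limit. Of the 80 genes named for their size, 46 have several probe sets and in 35 all probe sets went the same way. The comparison and the 40 gene lists (996 genes, 890 measured) were chosen with earlier results of these data known. Lists are described by counts and medians without a test. The package data.table (version 1.17.8) held the tables, and Python 3.11.15 with matplotlib 3.10.9 drew the plots. Promoter sequences are RefSeq's, 15384 genes matched, and the first listed entry was used for the 3915 genes with several.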

Additional observations from a re-analysis of the deposited data

How the results depend on the processing

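With 1 array left out in turn, 3042 to 3369 genes were called, 1251 to 1418 higher and 1688 to 1967 lower, with 345 to 361 past 2-fold. From background 83 to 112 were then higher and 73 to 109 lower (past 2-fold 37 to 43 and 19 to 26), in the intermediate class 228 to 254 and 285 to 322, and among well-expressed genes 919 to 1095 and 1290 to 1568. Same-numbered arrays of the lines did not deviate together (correlations 0.02, 0.13 and -0.16), and the fit with the number as a replicate block called 3677 genes, 3563 of them shared with the fit without it. The counts moved by over 1.5 times as follows, given as higher and lower. Each probe set on its own gave 5935 called, 2645 higher and 533 past 2-fold, with 253 and 232 from background (76 and 40 past 2-fold) and 588 and 632 intermediate. Without genes below the median level, which removes nearly all dim genes, 184 passed 2-fold, with 1 and 0 from background (1 and 0 past 2-fold) and 16 and 30 intermediate. The spike-in covariate left 523 called, 238 and 285, with 35 and 21 from background, 58 and 79 intermediate and 145 and 185 well expressed. An adjusted p under 0.01 left 2439, 1038 and 1401, with 70 and 52, 184 and 233, and 784 and 1116 by class. Requiring 2-fold left 350, 170 and 180, with 40 and 19, 67 and 83, and 63 and 78. A background limit of 3.5, 4.5 or 5 gave 66 and 61, 175 and 172, or 254 and 258 from background (past 2-fold 22 and 10, 62 and 31, or 83 and 49), the last with 137 and 201 intermediate. A well-expressed limit of 7 gave 465 and 614 intermediate. Classing by the shControl mean alone left 47 lower from background, 0 past 2-fold.

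Among the 163 genes named, the signs that turned were of genes that did not pass: CIITA (-0.071) and MAP3K8 (-0.024) with averaged probe sets, PTPRC with median centring (-0.0054) or quantile normalization (-0.0051), and CIITA (-0.22), IL1A (-0.30), MAP3K8 (-0.12) and PTPRC (-0.47) with the covariate. With 1 array left out the differences ran from -0.092 to 0.15 at MAP3K8, -0.062 to 0.10 at PTPRC, -0.12 to 0.12 at IL1A, -0.067 to 0.13 at MTAP and -0.083 to 0.0098 at TNFAIP3. The cause was not tested. Differences between levels under 4 are limited by background.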
